A study of Mus musculus with 20 samples.

Results

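Whole lymph nodes draining the duodenum were compared with nodes draining the ileum, the first and the last stretch of the small intestine. The comparison rests on 8 of the 20 libraries of the series, 4 labelled as duodenal and 4 as ileal. The libraries were grouped by their labels alone, while the gene lists were chosen with earlier results of these data known. All mice were 9 weeks old and carried the Rag1-/- genotype of the strain B6.129S7-Rag1tm1Mom/J, so both groups lack mature T and B cells and neither is a wild-type control. Bulk polyA RNA of the whole node was sequenced, and nodes of the jejunum, of the cecum with the colon, and of the groin gave the other 12 libraries. The labels name no animal for a library, so the p-values measure the spread between libraries, which may be technical. Values are given as CPM, the counts of a gene in every 1000000 counts of its library after scaling between libraries. The duodenal libraries held 189 to 228 M estimated counts and the ileal libraries 184 to 213 M, where 1 M is 1000000.

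The gut is patterned along its length. Hox genes, which encode homeodomain transcription factors, are switched on in an order that follows their place in their clusters, so that high-numbered paralogs mark more posterior mesenchyme. Lymph nodes filter the lymph of the segment they drain: afferent vessels open into sinuses lined by lymphatic endothelium and macrophages, reticular cells hold the scaffold, and high endothelial venules let blood lymphocytes in. Migratory dendritic cells, bacterial products and dietary lipid reach a node from its own segment, and innate lymphoid cells remain where Rag1 is missing.

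Transcripts of neighbouring tissues set the duodenal libraries apart from each other, and these values belong beside every result. The 33 pancreatic acinar genes with a row in the table took 5.38% and 3.01% of all CPM in duodenal libraries 1 and 2, 0.00297% and 0.00454% in duodenal libraries 3 and 4, and 0.00240% to 0.00262% in the ileal libraries. All 27 acinar genes that were tested were called higher over the 4 duodenal libraries, against 6.58% of all genes tested. None was called without duodenal libraries 1 and 2. That these libraries carry acinar transcripts was known beforehand, so neither outcome is a test. Ctrl, a chymotrypsin-like protease, stood at 1168, 728, 1.99 and 2.65 CPM in duodenal libraries 1 to 4 and at 1.46, 2.17, 2.26 and 2.24 CPM in ileal libraries 1 to 4. Of the islet and duct list, which marks the rest of the pancreas, the insulin genes Ins1 and Ins2 lay at or under 0.0518 CPM in every duodenal and ileal library and were not tested.

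Smooth muscle and nerve transcripts followed another pair of libraries, duodenal 2 and 3. The 14 smooth muscle genes summed to 445, 1622, 1626 and 627 CPM in duodenal libraries 1 to 4 and to 477, 468, 497 and 475 CPM in ileal libraries 1 to 4. The 16 glial and neuronal genes summed to 175, 253, 255 and 209.8 CPM in the duodenal and 143, 149, 134 and 144 CPM in the ileal libraries. Adipocyte genes went the other way, with sums of 428, 858, 1087 and 605 CPM in the duodenal and 2509, 1962, 1539 and 2554 CPM in the ileal libraries, and no library of one group reached the range of the other. In such bulk samples fewer cells of a type and less RNA per cell cannot be told apart. Rag1, the mutated gene, was read in every library (2.32, 2.85, 2.15 and 2.91 CPM in duodenal and 1.98, 2.53, 2.25 and 2.13 CPM in ileal libraries 1 to 4), and because all groups carry the mutation it checks no label. Ccl21a, a chemokine of lymph node stroma and lymphatic vessels, had 2576, 2228, 2405 and 2510.2 CPM in the duodenal libraries. It had 1637, 2026, 2156 and 1254 CPM in the ileal libraries. Nkx2-3, a homeobox gene of gut mesenchyme, was at 21.6 ± 2.51 against 22.03 ± 1.29 CPM. This and all such pairs give the mean ± SD of the 4 libraries in each group, duodenal first. Both genes were read in both nodes and neither was called, so they check no label either.

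**Figure D1:**
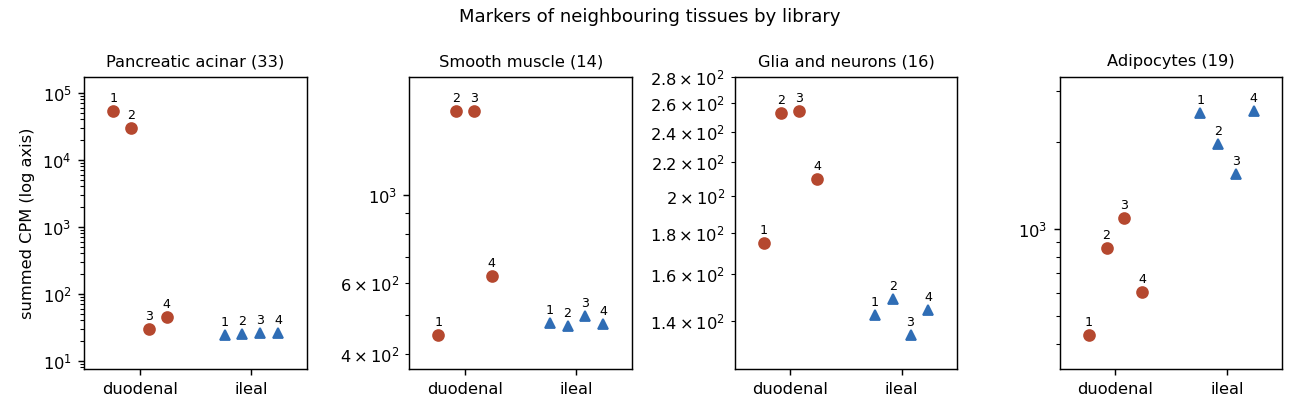
Summed CPM (log axis) of 4 marker lists in each of the 4 duodenal and 4 ileal libraries, numbered as in the labels. The acinar sum is high in duodenal libraries 1 and 2, the smooth muscle sum in duodenal libraries 2 and 3, the glial and neuronal sum is higher in every duodenal than in every ileal library, and the adipocyte sum is lower in every duodenal than in every ileal library.

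Of 29411 genes tested, 4297 were called, that is, 14.6% at a Benjamini-Hochberg adjusted p under 0.05 in edgeR's quasi-likelihood test. Higher calls in the duodenal node numbered 1935 (6.58% of the genes tested) and lower calls 2362 (8.03%). A difference of at least 2-fold was found in 584 higher and 225 lower genes. The median log2 fold change of all genes tested was 0.0223. Without duodenal libraries 1 and 2 the same test called 1267 genes, while without duodenal libraries 3 and 4, with as many libraries left, it called 4485, and without duodenal libraries 2 and 3 it called 2312. A difference is said here to hold in libraries 3 and 4 when the gene was called in the full comparison, was called the same way without libraries 1 and 2, and had both libraries 3 and 4 outside the range of the 4 ileal libraries. It held for 1143 genes, 592 higher and 551 lower, or 3.89% of all genes tested and 26.6% of those called. Among calls of at least 2-fold, 358 of 809 held. Of all 4297 called genes, 3586 had both libraries 3 and 4 beyond all 4 ileal libraries on the side of the call, and no gene was called in opposite directions by the full and the reduced comparison. Libraries 3 and 4 and the ileal libraries took part in both comparisons, so neither value is a separate test. The share of all genes tested with such an order was not computed. The counts of called members given for each gene list are to be read against these shares of all genes: 6.58% higher, 8.03% lower and 3.89% held. Setting them side by side is no test, since the lists were chosen with earlier results of these data known.

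**Figure D2:**
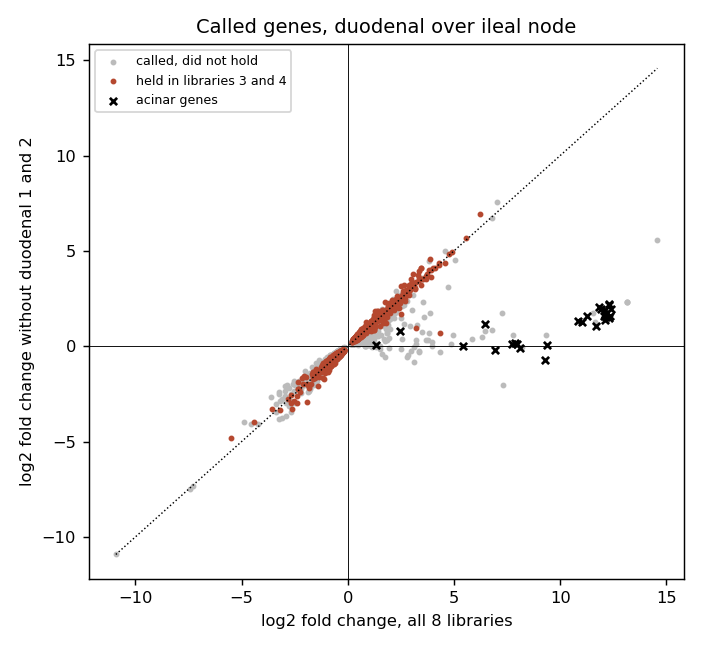
Each point is a gene called between the 4 duodenal and the 4 ileal libraries: the log2 fold change over all 8 libraries on the x axis and without duodenal libraries 1 and 2 on the y axis. The 1143 genes that held in libraries 3 and 4 lie mostly near the diagonal, and most acinar genes (crosses) lie far below it.

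Posterior Hox genes were lower in the duodenal node and the most anterior HoxA genes were higher. Of 9 tested Hox genes of paralogs 9 to 13, 7 were lower and 0 higher, and all 7 held in libraries 3 and 4, against 8.03% called lower and 3.89% held of all genes tested. Their median log2 fold change was -1.86. Hoxc9 (ENSMUSG00000036139) had 0.535, 0.716, 0.754 and 0.654 CPM in duodenal libraries 1 to 4 and 3.77, 3.37, 2.54 and 3.76 CPM in ileal libraries 1 to 4, a log2 fold change of -2.33 ± 0.172 (± SE over 4 and 4 libraries, as for every log2 fold change given in brackets). Hoxa9 stood at 0.293, 0.456, 0.394 and 0.416 CPM in the duodenal and 2.02, 1.95, 2.04 and 1.66 CPM in the ileal libraries (-2.29 ± 0.151). For both genes the highest duodenal library lay below the lowest ileal one by a wide margin. Hoxa10 read 0.0805, 0.0961, 0.1398 and 0.07099 CPM against 0.642, 0.759, 0.5103 and 0.617 CPM (-2.68 ± 0.226). Hoxc10 was near the limit of detection in the duodenal node, at 0.0173, 0, 0.0720 and 0.00507 CPM, and at 1.11, 1.54, 0.552 and 1.48 CPM in the ileal node (-5.49 ± 0.754). On the HoxD and HoxB clusters the differences were smaller: Hoxd9 stood at 8.73 ± 2.04 against 16.2 ± 1.53 CPM, Hoxd10 at 1.85 ± 0.503 against 3.83 ± 0.6001 CPM and Hoxb9 at 1.14 ± 0.170 against 1.56 ± 0.0761 CPM. The call of Hoxb9 was lost in a fit of the 8 libraries alone, without duodenal library 3 and without duodenal libraries 3 and 4. Per transcript length, Hoxd9 was the most abundant of these 7 in the ileal node (5.74 and 11.2 TPM, a measure per transcript length, in the duodenal and ileal means).

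At the other end of the clusters, 6 of 14 tested genes of paralogs 1 to 5 were higher and 1 was lower, and 4 of the higher ones held. Hoxa4 had 1.73, 2.22, 2.06 and 1.67 CPM in the duodenal and 0.832, 0.753, 0.959 and 0.996 CPM in the ileal libraries, and Hoxa2 had 1.89, 2.04, 2.13 and 1.704 against 1.01, 0.944, 0.747 and 0.742 CPM. No duodenal library overlapped the ileal range for either gene. Hoxa3 (5.96 ± 1.04 against 3.98 ± 0.148 CPM) and Hoxa5 (4.63 ± 0.524 against 3.44 ± 0.223 CPM) held as well, while the call of Hoxa5 was lost without duodenal libraries 2 and 3. Hoxd4 was the exception on the lower side (6.72 ± 1.33 against 11.02 ± 0.946 CPM) and was not called without libraries 1 and 2. Of 8 central genes, paralogs 6 to 8, 4 were lower and 0 higher. Hoxc8 held (6.56, 7.04, 9.34 and 7.12 against 13.9, 11.9, 12.7 and 13.8 CPM), whereas Hoxd8, Hoxb8 and Hoxc6 did not. The call of Hoxc6 was lost in 10 of 19 alternatives, among them those without duodenal library 1 or 2 and without each ileal library. Hoxb4 and Hoxb7 were not called (log2 fold changes 0.088 ± 0.0538 and -0.19 ± 0.153). In edgeR's test the adjusted p was 2.17e-09 for Hoxc9, 1.11e-07 for Hoxa9, 2.83e-07 for Hoxa10, 4.75e-06 for Hoxc10, 1.24e-04 for Hoxa4 and 1.26e-04 for Hoxa2. The jejunal node, which lies between both segments, had 1.59 ± 0.116 CPM of Hoxc9, 1.05 ± 0.1801 CPM of Hoxa9 and 1.25 ± 0.168 CPM of Hoxa4. Antisense and read-through transcripts run through the Hox clusters, and whether strand was used in counting is not given in the sources used here.

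**Figure D3:**
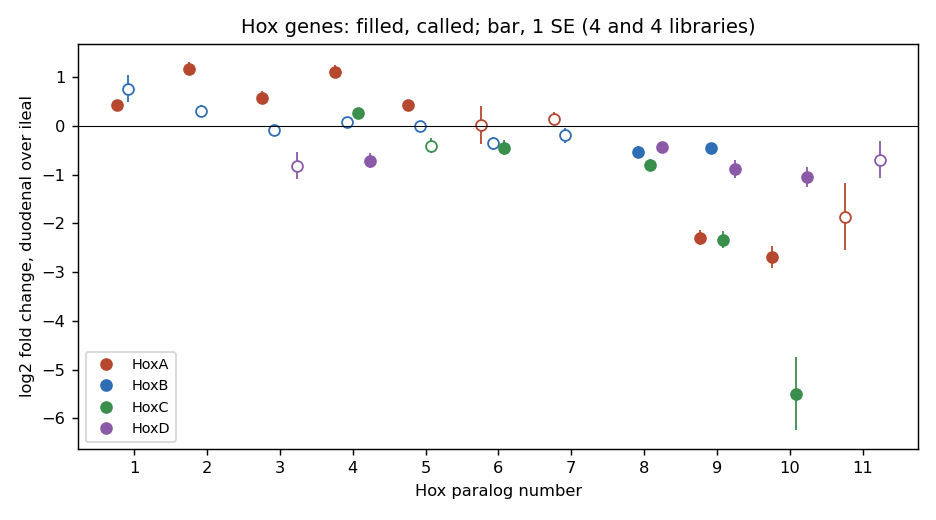
Log2 fold change, duodenal over ileal node, of each tested Hox gene (point, with a bar of 1 SE from the spread of the 4 and 4 libraries) against its paralog number; filled points were called. All 9 tested genes of paralogs 9 to 13 lie below 0, the HoxA genes of paralogs 1 to 5 lie above 0, and Hoxd4 was the lower call among paralogs 1 to 5.

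The start regions of a pair of the posterior genes are shown because both genes were called lower and they lie on different chromosomes. Shared regulation was not tested. Both windows run from 250 bases before to 50 bases after the RefSeq start on GRCm38.p6, at chr6:52227321-52227620 (minus strand) for Hoxa9 and at chr2:74697513-74697812 (plus strand) for Hoxd9. The RefSeq table held an entry for 4 of the 7 posterior genes. TTTATNG, a motif of caudal-type homeodomain factors, was searched on both strands, where capitals would mark it, and none of the 5 windows of these 4 genes held it. It occurs in 10.9% of all 32817 windows of the same 300 bases.
Hoxa9: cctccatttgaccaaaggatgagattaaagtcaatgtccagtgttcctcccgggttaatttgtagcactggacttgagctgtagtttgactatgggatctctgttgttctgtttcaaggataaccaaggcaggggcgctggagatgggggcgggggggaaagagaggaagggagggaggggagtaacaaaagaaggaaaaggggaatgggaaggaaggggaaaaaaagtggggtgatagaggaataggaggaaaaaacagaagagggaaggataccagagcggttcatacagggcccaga
Hoxd9: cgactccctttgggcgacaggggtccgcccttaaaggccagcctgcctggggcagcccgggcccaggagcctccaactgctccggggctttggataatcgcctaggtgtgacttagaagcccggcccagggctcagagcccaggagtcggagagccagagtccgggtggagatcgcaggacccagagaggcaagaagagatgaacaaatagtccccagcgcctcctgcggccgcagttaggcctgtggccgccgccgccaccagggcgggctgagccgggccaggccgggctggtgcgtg

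Among 31 tested regional mesenchymal transcription factors, 5 were higher and 4 lower, and 5 and 2 held. The fit without duodenal libraries 2 and 3 called 2 higher and 5 lower. Isl1, a LIM homeodomain factor of neurons and foregut mesenchyme, was at 0.627, 1.47, 2.49 and 1.02 CPM in the duodenal and 0.181, 0.3303, 0.139 and 0.277 CPM in the ileal libraries, highest in the libraries with the high muscle and nerve sums. Meis1, a cofactor of Hox proteins, differed less (14.8 ± 1.91 against 10.7 ± 0.843 CPM), and all 4 duodenal libraries lay above all 4 ileal ones. Hand2, a bHLH factor of visceral mesenchyme and sympathetic neurons, stood at 1.41, 4.52, 4.69 and 1.58 against 1.13, 0.645, 0.696 and 1.08 CPM, high where smooth muscle and nerve genes were high, and its call was lost without duodenal libraries 2 and 3. Foxf2, a forkhead factor of gut mesenchyme, was lower (0.443, 0.384, 0.538 and 0.309 against 1.06, 0.913, 0.933 and 0.991 CPM), as was Gata4, a zinc finger factor (4.32 ± 0.9502 against 6.35 ± 0.788 CPM, a call lost in a fit of the 8 libraries alone). Gata6 (-0.35 ± 0.154) and Nkx2-3 (-0.028 ± 0.0978) were not called, and Barx1, a stomach factor, was at or under 0.0173 CPM in all 8 libraries and was not tested. Gata6 was called lower in 6 of 19 alternatives, among them DESeq2 and the fits without duodenal library 3 or ileal library 2, and duodenal library 3 was its highest duodenal library. Tbx18 and Zfhx4 completed the 7 that held, but neither was called without duodenal libraries 2 and 3 or in a fit of the 8 libraries alone, and Zfhx4 not without duodenal library 2 or 3 or any 1 ileal library. In edgeR's test the adjusted p was 0.00103 for Meis1, 0.00114 for Foxf2, 0.00206 for Isl1, 0.00399 for Hand2 and 0.00989 for Gata4.

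Secreted modulators of the Wnt and BMP pathways, which pattern gut mesenchyme by binding ligands or receptors outside the cell, differed in both directions. Of 36 tested, 6 were higher and 7 lower, and 5 and 4 held in libraries 3 and 4. The fit without duodenal libraries 2 and 3 called 5 higher and 11 lower. Frzb, a Wnt-binding antagonist, had 1.605, 2.503, 1.78 and 1.63 CPM in duodenal libraries 1 to 4 and 5.997, 10.7, 10.3 and 8.71 CPM in ileal libraries 1 to 4 (-2.25 ± 0.242). Sfrp4, of the same family, had 6.99, 7.38, 6.97 and 7.22 against 17.99, 25.8, 20.5 and 17.2 CPM (-1.51 ± 0.133). The groups did not overlap for either antagonist. Wnt2, a ligand (1.75 ± 0.351 against 4.21 ± 1.29 CPM), was lower too. Sostdc1, which blocks both BMP and Wnt signals, was higher at 2.37, 5.81, 4.82 and 2.82 against 0.530, 0.599, 0.263 and 0.838 CPM (2.83 ± 0.461). Its relative Sost had 0.288, 1.36, 2.02 and 0.639 against 0.191, 0.0722, 0.129 and 0.204 CPM. Both were highest in duodenal libraries 2 and 3, and both kept their call without them. Rspo3, which enhances Wnt signals, stood at 12.8 ± 1.66 against 8.12 ± 0.588 CPM, Dkk2, a Wnt co-receptor ligand, at 8.21 ± 0.801 against 5.12 ± 0.765 CPM, and Bmp3 at 2.55 ± 0.296 against 1.12 ± 0.309 CPM, all higher in the duodenal node. The edgeR adjusted p was 3.95e-06 for Frzb, 1.96e-04 for Sfrp4, 2.49e-04 for Sostdc1, 5.52e-04 for Rspo3 and 0.00206 for Dkk2.

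Reticular cell genes shifted in part. Coch, which encodes cochlin, a matrix protein that follicular dendritic cells secrete, was the gene with the lowest fold change under the naming rule, at 4.87, 2.93, 4.75 and 3.71 CPM in duodenal and 26.9, 30.9, 24.7 and 33.3 CPM in ileal libraries 1 to 4 (-2.83 ± 0.197, edgeR adjusted p = 2.69e-06). No duodenal library came near the ileal range, and the jejunal node was at 7.48 ± 0.4203 CPM. The follicular and marginal reticular list had 5 higher and 2 lower calls among 11 tested genes, of which 1 and 2 held. Sox9 was higher (1.96 ± 0.202 against 0.849 ± 0.136 CPM) and Tnfsf11, the cytokine RANKL, lower (39.3 ± 6.61 against 51.4 ± 1.84 CPM, a call lost without duodenal library 2, 3 or 4, ileal library 3 or 4, or duodenal libraries 2 and 3 or 3 and 4 together). Cxcl13, the chemokine of B-cell follicles, was called higher over all libraries (49.1, 27.8, 42.02 and 25.6 against 17.3, 19.3, 17.4 and 13.4 CPM) but not without libraries 1 and 2 (adjusted p = 0.102 in edgeR's test), nor without duodenal library 1, ileal library 4, or duodenal libraries 2 and 3. Of 16 medullary reticular genes, 5 were higher and 3 lower, and 3 and 2 held. Rspo3, Cd34 and Ogn were higher. Igf1, a growth factor (76.8 ± 9.00 against 114 ± 3.87 CPM), and Nr4a2, an orphan nuclear receptor (15.6 ± 1.29 against 25.5 ± 2.53 CPM), were lower. Ogn, the proteoglycan osteoglycin, stood at 24.8, 45.5, 58.98 and 20.5 against 18.3, 19.2, 15.6 and 16.3 CPM and was not called without duodenal libraries 2 and 3. The medullary genes Il33 (-0.31 ± 0.0806), Il6 (-0.38 ± 0.241) and Cxcl12 (-0.039 ± 0.0599) were not called. Il33 was called lower with DESeq2, with the replicate block and without ileal library 1, and Il6 without duodenal library 1. Of 15 genes of T-zone and perivascular reticular cells, 4 were higher and 2 lower, and 2 and 1 held. Ltbr, the lymphotoxin beta receptor that organizes lymph node stroma, was lower (60.9 ± 2.94 against 80.1 ± 4.66 CPM), and the higher ones that held, Cnn1 and Pdgfra, lost their calls without duodenal libraries 2 and 3, Pdgfra also without 3 and 4. Ccl19 (356 ± 8.805 against 266 ± 39.1 CPM) and Ccl21a (0.46 ± 0.183) were not called, although Ccl19 was called higher with DESeq2 and in a fit of the 8 libraries alone.

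Genes of high endothelial venules, among them those that build L-selectin ligands, gave mostly higher calls in the duodenal node. Of 23 genes of high endothelial venules and blood endothelium, 8 were higher and 2 lower, and 6 and 0 held, against 6.58% and 8.03% of all genes. The fit without duodenal libraries 2 and 3 called 5 higher and 3 lower, with a median log2 fold change of -0.023 for the list. Glycam1 (ENSMUSG00000022491), a mucin that carries L-selectin ligands, stood at 412, 397, 372 and 424 CPM in duodenal and 138, 136, 141 and 68.1 CPM in ileal libraries 1 to 4 (1.74 ± 0.258). Its 4 duodenal libraries lay within a narrow band above all ileal ones, of which library 4 was lowest. Fut7, the fucosyltransferase that completes those ligands, had 19.1, 22.8, 26.6 and 25.2 against 12.6, 10.3, 11.6 and 7.501 CPM (1.16 ± 0.194). Chst4, the sulfotransferase of the same pathway, was also higher (10.6, 14.4, 13.3 and 15.1 against 4.97, 6.23, 8.15 and 2.63 CPM), a call lost without duodenal libraries 2 and 3. Emcn, endomucin of venules and capillaries (31.5 ± 1.87 against 17.9 ± 2.48 CPM), Cd34, a sialomucin of endothelium and stroma (91.5 ± 9.96 against 55.5 ± 6.68 CPM), and Vwf, von Willebrand factor (144 ± 23.6 against 95.6 ± 12.7 CPM, lost without duodenal libraries 2 and 3), completed the 6 that held. On the lower side Plvap, of fenestrated endothelium (516 ± 42.96 against 692 ± 77.8 CPM), was called but not without duodenal libraries 1 and 2. Madcam1, the mucosal addressin, did not differ beyond its spread (103, 65.7, 72.8 and 47.7 against 75.3, 60.6, 70.4 and 53.6 CPM). The edgeR adjusted p was 2.54e-04 for Emcn, 9.57e-04 for Cd34, 0.00188 for Glycam1, 0.00327 for Fut7 and 0.0114 for Chst4.

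Sinus and macrophage genes were lower in the duodenal node. Of 20 tested genes of sinus and resident macrophages, 14 were lower and 0 higher, and 10 held, against 8.03% lower calls and 3.89% held among all genes tested. The list's median log2 fold change was -0.56. Cd5l, a secreted scavenger protein of macrophages, had 249, 169, 197 and 199 CPM in duodenal and 431, 435, 522 and 575 CPM in ileal libraries 1 to 4 (-1.27 ± 0.154). Siglec1, the sialic acid receptor CD169 of sinus macrophages, had 344, 370.0, 556 and 471 against 803, 757, 872 and 916 CPM (-0.94 ± 0.171). For both the groups stood apart, and duodenal library 3 was the nearest to the ileal range for Siglec1. Csf1r, the receptor for the macrophage growth factor, stood at 670.4 ± 93.9 against 1026 ± 123 CPM, the surface receptor Adgre1 (F4/80) at 122 ± 19.9 against 192 ± 22.2 CPM, and the lectin Cd209b at 277 ± 74.3 against 459 ± 68.8 CPM. Marco, a scavenger receptor of sinus cells and macrophages, had 1085, 707, 1073 and 867 against 1580.0, 1279, 1443 and 1716 CPM. Timd4, a phosphatidylserine receptor of resident macrophages, was not called (0.092 ± 0.1999). Of 19 lymphatic endothelial genes, some shared with the macrophage list, 8 were lower and 0 higher, and 3 held: Marco, the hyaluronan receptor Stab2 (193 ± 39.3 against 314 ± 22.7 CPM) and the integrin Itga2b (87.8 ± 15.6 against 146 ± 27.03 CPM). The defining lymphatic genes Lyve1 (149, 149, 281 and 184 against 379, 306, 398 and 402 CPM), Prox1 (45.8 ± 11.2 against 76.6 ± 3.51 CPM) and Flt4 (104 ± 31.6 against 175 ± 17.8 CPM) were called over all libraries but not without libraries 1 and 2, where the edgeR adjusted p was 0.0553, 0.0758 and 0.109. Duodenal library 3 was the highest duodenal library for all 3.

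Complement genes and genes of lipid handling gave lower calls and no higher ones. Of 20 complement genes, 9 were lower and 0 higher, and 5 held, against 8.03% called lower and 3.89% held among all genes. The 3 chains of C1q, which starts the classical pathway and is counted in the macrophage list too, were each lower: C1qa stood at 475 ± 56.6 against 657 ± 40.1 CPM, C1qb at 518 ± 46.8 against 729 ± 37.9 CPM and C1qc at 416 ± 41.1 against 642 ± 60.5 CPM. C6, a component of the membrane attack complex, differed most among the 5, at 32.8, 23.8, 40.5 and 33.5 against 102, 81.3, 104 and 112 CPM (-1.61 ± 0.188). Of 23 lipid uptake and export genes, 14 were lower and 0 higher, and 7 held. Plin2, which coats lipid droplets, had 176, 145, 189.6 and 165 against 234, 219, 258 and 251 CPM. The other 6 were the scavenger receptors Msr1 (73.2 ± 16.2 against 120.2 ± 5.76 CPM) and Scarb1 (178 ± 12.1 against 235 ± 20.3 CPM), the oxysterol receptor Nr1h3 (116 ± 8.497 against 157 ± 10.3 CPM), its target Mylip, a ligase that degrades lipoprotein receptors (99.4 ± 9.601 against 137 ± 10.7 CPM), and the apolipoproteins Apoc1 and Apoc2 (3.66 ± 0.304 against 6.04 ± 0.389 and 6.52 ± 0.251 against 9.01 ± 0.685 CPM). No duodenal library overlapped the ileal range for Plin2. Lpl (81, 124, 128 and 93.3 against 283, 267, 184 and 322 CPM) and Fabp4 (58.2, 96.6, 110.1 and 58.5 against 331, 241, 192 and 331 CPM), which adipocytes also make, were lower, and neither was called without duodenal libraries 1 and 2. The call of Fabp4 was lost in 8 of 19 alternatives, including those without duodenal library 1, 2 or 4 or ileal library 1 or 4. The adipocyte sums given above were lower in the same libraries, and their part in the lipid counts was not tested. Cd36 (-0.75 ± 0.179) and Gpnmb (-0.21 ± 0.177) were not called, although Cd36 was called lower in a fit of the 8 libraries alone. Lbp, which binds bacterial lipopolysaccharide and hands it to its receptor complex, was lower at 15.5, 18.2, 32.2 and 19.8 against 46.9, 39.1, 44.9 and 60.2 CPM (-1.16 ± 0.262). In edgeR's test the adjusted p was 3.26e-05 for C6, 1.55e-04 for Cd5l, 3.73e-04 for C1qc, 4.99e-04 for Plin2, 6.74e-04 for Siglec1 and 4.39e-04 for Lbp.

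**Figure D4:**
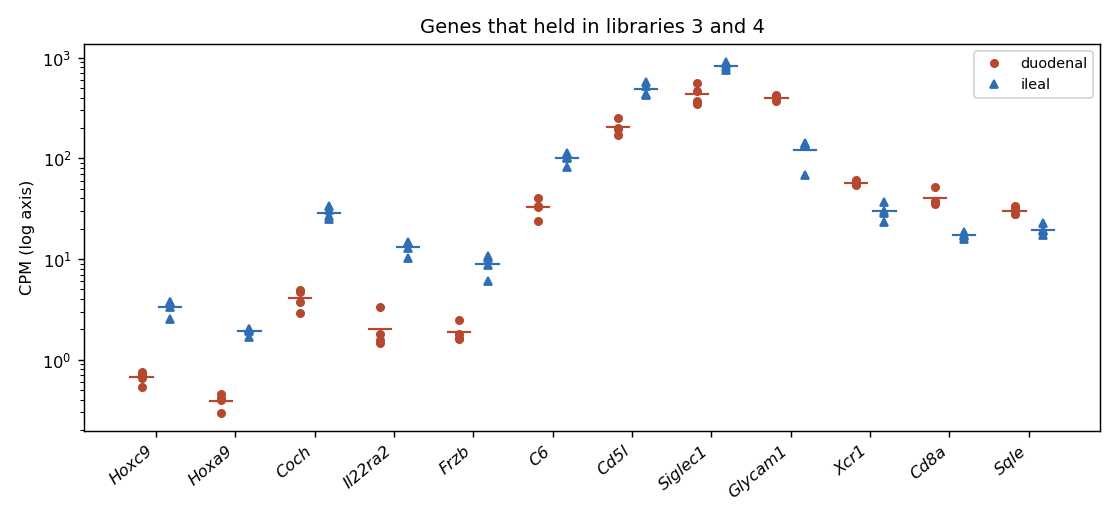
CPM (log axis) of 12 genes that held in libraries 3 and 4, in each of the 4 duodenal (circles) and 4 ileal (triangles) libraries; bars mark group means. For each gene all 4 duodenal libraries lie on the same side of all 4 ileal libraries.

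Genes of type 1 dendritic cells, which take up dead cells and cross-present antigen, gave higher calls in the duodenal node, and genes of dendritic cells that have matured and migrated gave lower ones. Of 12 type 1 genes, 6 were higher and 0 lower, and 5 held. Xcr1, a chemokine receptor of this type, had 60.5, 56.5, 55.8 and 53.9 CPM in duodenal and 36.6, 28.7, 30.1 and 23.1 CPM in ileal libraries 1 to 4 (0.93 ± 0.1401), and Cd8a, which resident type 1 cells carry, had 51.6, 38.1, 35.6 and 37.2 against 17.04, 18.4, 15.9 and 17.2 CPM (1.24 ± 0.1298). Ppt1 (268 ± 30.00 against 187 ± 16.95 CPM) and Tlr3, a receptor for double-stranded RNA (46.1 ± 5.36 against 34.4 ± 2.11 CPM), differed less, and Clec9a was not called (0.10 ± 0.0951). Of 17 mature migratory genes, 0 were higher and 6 lower, and 2 held. Ccr7, the receptor that guides these cells into nodes, stood at 746, 645, 674 and 744 against 852, 955, 888 and 983 CPM, and Ccl5 at 469 ± 75 against 634 ± 59.3 CPM. Both calls were lost without duodenal libraries 2 and 3, and that of Ccl5 also without 3 and 4 and in a fit of the 8 libraries alone. Fscn1, an actin-bundling protein of mature dendritic cells, was lower (1741 ± 242 against 2507 ± 424 CPM) but not called without libraries 1 and 2 or without 2 and 3. Without duodenal libraries 2 and 3 none of the 17 genes was called, against 6 over all libraries. Of 13 type 2 genes, 3 were higher and 2 lower, and 2 and 0 held, among them Clec4a4, a lectin of type 2 cells (3.96 ± 0.457 against 2.18 ± 0.302 CPM), while Cd209a was not called (0.014 ± 0.154). Of 13 class II presentation genes, 1 was higher and 2 lower, or 23.1% called against 14.6% of all genes, and all 3 held, against 3.89% of all genes. H2-Ob, which restrains peptide loading, was higher (44.9 ± 2.09 against 30.7 ± 5.07 CPM). H2-DMa and H2-DMb1, the chains that promote it, were lower (152 ± 14.7 against 196 ± 15.8 and 146 ± 13.1 against 179 ± 12.1 CPM; the call of H2-DMb1 was lost in a fit of the 8 libraries alone). Adjusted p-values from edgeR were 3.26e-05 for Cd8a, 1.13e-04 for Xcr1, 0.00468 for Ccr7 and 0.00328 for H2-Ob.

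The cytokine Il22, by which type 3 innate lymphoid cells act on epithelium, was lower in the duodenal node, and so was its soluble antagonist. Il22 (ENSMUSG00000074695) had 0.0978, 0.0625, 0.0212 and 0.3397 CPM in duodenal libraries 1 to 4 and 3.96, 2.36, 3.22 and 1.29 CPM in ileal libraries 1 to 4 (-4.40 ± 0.809), and the jejunal node lay at 1.79 ± 1.37 CPM. Il22ra2, the secreted decoy receptor that binds Il22, had 3.301, 1.48, 1.56 and 1.78 against 14.8, 14.4, 12.8 and 10.3 CPM (-2.69 ± 0.291). No library of one group reached the other for either gene. Of 18 tested type 3 genes, 3 were higher and 2 lower, and 1 and 2 held. Lta, lymphotoxin alpha (16.9 ± 2.47 against 8.69 ± 2.49 CPM), and Cxcr6 (33.9 ± 7.18 against 21.7 ± 3.87 CPM) were higher, and neither was called without duodenal libraries 1 and 2. Cxcr6 was also not called without duodenal library 1 or ileal library 4. Of 17 type 2 innate lymphoid genes, 4 were higher and 0 lower, and 1 held: Il2ra, a subunit of the interleukin-2 receptor (51.4, 53.2, 47.9 and 54.1 against 33.9, 31.1, 33.4 and 25.2 CPM). Il1rl1, the receptor of Il33, was not called (0.28 ± 0.181), but was called higher without duodenal libraries 2 and 3. Natural killer genes gave 0 higher and 2 lower calls among 19, or 10.5% called against 14.6% of all genes, and Ccl5 alone held. In edgeR's test the adjusted p was 6.19e-05 for Il22ra2, 6.00e-04 for Il22 and 0.00284 for Il2ra.

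Of 31 chemokine genes, 1 was higher and 7 lower, and 0 and 6 held. Ccl20, which attracts lymphoid and dendritic cells, had 0.161, 0.0817, 0.229 and 0.325 against 0.962, 1.24, 1.02 and 0.787 CPM (-2.33 ± 0.421), and Cx3cl1, fractalkine, stood at 25.4 ± 1.88 against 34.9 ± 3.03 CPM. Ccl12 (5.13 ± 1.32 against 9.503 ± 1.82 CPM) and Ccl8 (3.198, 2.05, 2.01 and 1.69 against 3.48, 5.74, 2.74 and 6.24 CPM) were lower. Both calls were lost without duodenal libraries 2 and 3, and that of Ccl8 also with limma-voom, in a fit of the 8 libraries alone, without duodenal libraries 3 and 4, without duodenal library 2 and without ileal library 4. The interferon response list had 0 higher and 3 lower of 27 genes, or 11.1% called against 14.6% of all genes, all 27 with a fold change below 0. Its median was -0.33. Its sum was 4845, 4150.0, 4057 and 4387 CPM in the duodenal and 3882, 7164, 5148 and 5918 CPM in the ileal libraries, so the groups overlapped. Gbp7 and Gbp3, interferon-induced GTPases, held (149 ± 8.64 against 209.7 ± 24.96 and 134 ± 14.5 against 185 ± 21.4 CPM). Of 16 tested B-lineage genes, 2 were higher and 2 lower, and 2 and 1 held. Ms4a1, a B-cell antigen (4.11, 4.03, 3.47 and 4.24 against 1.71, 1.82, 1.85 and 2.04 CPM), and Jchain (1.09 ± 0.423 against 0.382 ± 0.0499 CPM) were higher, and Blk, a kinase of B-lineage and innate-like lymphoid cells (0.979 ± 0.247 against 2.303 ± 0.594 CPM), was lower. Of 17 tested eosinophil and neutrophil genes, 7 were higher and 0 lower, and 2 held, with S100a8, a neutrophil granule protein, at 8.95, 9.29, 6.45 and 11.3 against 4.77, 5.30, 3.65 and 3.14 CPM. The edgeR adjusted p was 6.81e-04 for Ccl20, 9.90e-04 for Cx3cl1, 0.00112 for Gbp7, 3.49e-05 for Ms4a1 and 0.00454 for S100a8.

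Retinoid genes, which make retinoic acid from dietary vitamin A and sense it, were split. Of 25 tested, 4 were higher and 7 lower, and 1 and 2 held. Aldh1a2, the main retinoic acid synthase of gut nodes, was lower over all libraries (128, 147, 130.3 and 181 against 192, 237, 170.2 and 274 CPM) but not without libraries 1 and 2 (edgeR adjusted p = 0.146), without duodenal libraries 2 and 3, without ileal library 4 or in a fit of the 8 libraries alone. Its relative Aldh1a3 held (4.49, 4.98, 6.13 and 3.46 against 11.9, 8.52, 7.67 and 9.47 CPM). Lrat, which stores retinol as ester, was higher over all libraries (16.3, 21.1, 17.1 and 23.9 against 10.8, 10.01, 14.4 and 12.3 CPM) and missed the threshold without libraries 1 and 2 (edgeR adjusted p = 0.05001). Of the receptors, Rarg was higher (76.6 ± 8.201 against 57.4 ± 4.73 CPM, lost with counts summed from transcripts and without duodenal libraries 3 and 4) and Rxra lower (176 ± 23.4 against 261 ± 29.3 CPM), and Rarb was not called (-0.22 ± 0.180). Cyp26b1, which degrades retinoic acid, was not called either, with a spread that covered both groups (24.3, 19.8, 32.8 and 56.3 against 29.05, 19.05, 24.1 and 52.1 CPM). Among 10 tested genes of the aryl hydrocarbon receptor, a sensor of dietary and microbial ligands, Aldh3a1 was higher (1.04, 0.927, 1.21 and 0.898 against 0.172, 0.217, 0.227 and 0.102 CPM) and 4 were lower, of which Il22 held. Cyp1b1, a further target, stood at 201 ± 28.1 against 301 ± 43.3 CPM. Vdr, the vitamin D and bile acid receptor, was the single called gene of 11 tested bile acid and enterohepatic genes, and it was lower and held (5.47, 5.55, 5.37 and 5.88 against 8.81, 8.98, 8.74 and 7.08 CPM, edgeR adjusted p = 0.00178).

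Called genes of sterol synthesis were higher in the duodenal node with 1 exception. Of 20 tested, 6 were higher and 1 lower, and 5 and 0 held, with a median log2 fold change of 0.11. Sqle, which oxidizes squalene on the way to sterols, had 27.7, 28.3, 33.2 and 31.7 CPM in duodenal and 19.6, 18.9, 17.2 and 22.6 CPM in ileal libraries 1 to 4 (0.63 ± 0.104, edgeR adjusted p = 3.47e-04). Stard4, a cholesterol transport protein (39.2 ± 1.61 against 28.9 ± 1.36 CPM), and Msmo1, a sterol demethylating oxidase (27.7 ± 2.34 against 18.6 ± 2.396 CPM), showed the same order with no overlap of the groups. Cyp51 differed less (51.1 ± 4.03 against 41.2 ± 4.19 CPM) and lost its call without duodenal libraries 3 and 4 and without ileal library 3. Hmgcs1, HMG-CoA synthase (80.9 ± 1.59 against 65.3 ± 9.88 CPM), was called over all libraries, and the call was lost in 7 of 19 alternatives, among them those without duodenal library 2 or ileal library 1 or 3. Srebf1, a transcription factor of lipid synthesis, was lower (84.9 ± 7.32 against 124 ± 13.6 CPM) but not called without duodenal libraries 1 and 2, and Insig1 (-0.0049 ± 0.174), which responds to sterol levels, was not called.

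The start regions of the 3 called synthesis genes with an entry in the RefSeq table are shown because all 3 genes were called higher. Shared regulation was not tested. The windows lie on GRCm38.p6 at chr5:4104648-4104947 (minus strand) for Cyp51, chr8:64733529-64733828 (minus strand) for Msmo1 and chr13:119690101-119690400 (plus strand) for Hmgcs1. Capitals mark matches, on either strand, to TCACNCCAC, a form of the sterol regulatory element, and to CCAAT, the box of the factor NF-Y; the motifs do not overlap in these windows. CCAAT or its complement was found in all 3, with 1 match in Cyp51, 3 in Msmo1 and 4 in Hmgcs1, and it occurs in 37.4% of all 32817 windows. TCACNCCAC had 1 match, in Hmgcs1, and occurs in 1.24% of all windows.
Cyp51: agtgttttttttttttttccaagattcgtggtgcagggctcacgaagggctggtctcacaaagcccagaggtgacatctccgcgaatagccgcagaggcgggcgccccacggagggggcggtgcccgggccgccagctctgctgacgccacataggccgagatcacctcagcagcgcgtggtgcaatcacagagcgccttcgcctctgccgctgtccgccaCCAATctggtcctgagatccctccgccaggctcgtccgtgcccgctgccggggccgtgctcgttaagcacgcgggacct
Msmo1: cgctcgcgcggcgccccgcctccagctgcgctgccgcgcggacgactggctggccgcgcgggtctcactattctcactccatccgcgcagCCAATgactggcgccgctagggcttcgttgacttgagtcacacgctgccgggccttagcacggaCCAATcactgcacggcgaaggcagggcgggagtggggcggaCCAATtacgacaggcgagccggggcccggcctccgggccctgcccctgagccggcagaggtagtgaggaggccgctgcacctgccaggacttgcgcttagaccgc
Hmgcs1: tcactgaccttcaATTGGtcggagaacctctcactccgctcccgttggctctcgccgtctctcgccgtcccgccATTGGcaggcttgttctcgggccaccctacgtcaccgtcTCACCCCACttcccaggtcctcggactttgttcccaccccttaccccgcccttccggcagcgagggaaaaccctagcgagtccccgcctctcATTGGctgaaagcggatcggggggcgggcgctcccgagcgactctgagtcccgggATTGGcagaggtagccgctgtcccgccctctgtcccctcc

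Smooth muscle, glial and neuronal genes were higher in the duodenal node. Of 14 smooth muscle genes, 11 were higher and 0 lower, and 10 held. Without duodenal libraries 2 and 3, the libraries with the high muscle sum, 2 were still called, Myocd and Hhip. Cnn1, calponin of smooth muscle, had 0.443, 35.8, 37.3 and 4.41 CPM in duodenal and 0.893, 0.764, 0.6701 and 0.577 CPM in ileal libraries 1 to 4, so that duodenal library 1 lay below the ileal range. Its call was also lost with limma-voom, as was that of Mylk4. Mylk4, a myosin light chain kinase gene, had 0.753, 14.3, 16.99 and 0.654 against 0.428, 0.454, 0.428 and 0.374 CPM. Hhip, which binds Hedgehog ligands, was less uneven (1.32, 2.59, 2.68 and 1.53 against 0.581, 0.361, 0.598 and 0.532 CPM). The glial and neuronal list had 8 higher and 0 lower calls among 14 tested genes, and 7 held, 3 of 14 being called without duodenal libraries 2 and 3. Cdh19, a cadherin of Schwann cell precursors (3.51, 18.3, 19.4 and 8.81 against 2.39, 1.44, 0.428 and 3.14 CPM), Ncam1 (1.62, 9.89, 10.9 and 3.83 against 1.297, 0.779, 0.541 and 1.61 CPM) and Sox10 (1.41, 10.01, 9.99 and 4.77 against 1.502, 0.686, 0.186 and 1.91 CPM) followed the same libraries, and all 3 lost their calls without duodenal libraries 2 and 3, Sox10 also without library 2 alone. Col4a6, a basement membrane collagen chain that smooth muscle makes, had 1.98, 9.48, 12.4 and 2.46 against 1.68, 1.68, 1.56 and 1.52 CPM and also lost its call there. The part of carried-over muscle or nerve in these differences was not tested.

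The 15 highest and 15 lowest fold changes were taken among named genes that held, did not overlap and had 5 CPM or more in the higher group, for which 181 genes qualified as higher and 399 as lower. Fam184b had 17.2, 17.6, 16.4 and 17.2 CPM in duodenal and 5.29, 4.81, 6.21 and 3.46 CPM in ileal libraries 1 to 4 (1.79 ± 0.179), nearly the same in every duodenal library. Bc1, a short non-coding RNA of neurons, stood at 82.3, 87.7, 87.5 and 48.9 against 22.9, 22.7, 18.3 and 25.98 CPM, with library 4 lowest in the duodenal group. P2rx1, an ATP-gated channel, was at 4.44, 15.2, 11.6 and 4.47 against 1.21, 0.975, 0.876 and 0.962 CPM, highest in duodenal libraries 2 and 3, and kept its call without them. Klk1, tissue kallikrein, which the pancreas makes in quantity, was at 429, 319.5, 15.2 and 15.8 CPM in the duodenal and 9.03, 9.94, 10.04 and 9.02 CPM in the ileal libraries. In libraries 3 and 4 alone the log2 fold change was 0.70 in place of 4.36, and reads of its many close relatives may be shared. On the lower side, Nnat, a small membrane protein of neurons and other secretory cells, stood at 4.08, 11.4, 10.3 and 8.402 against 33.7, 36.2, 28.02 and 48.5 CPM (-2.10 ± 0.372). C1qtnf5, a secreted protein of the C1q and TNF family (12.7 ± 0.861 against 30.5 ± 6.48 CPM), Scube1, a secreted EGF-repeat protein (6.08 ± 1.13 against 13.7 ± 1.49 CPM), Dpysl5, a cytosolic protein of axon guidance (3.76 ± 0.562 against 8.57 ± 1.41 CPM), and Adra1b, an adrenergic receptor (4.29 ± 1.18 against 9.23 ± 1.05 CPM), all had lower values in each duodenal than in each ileal library. By edgeR's test the adjusted p was 3.01e-05 for P2rx1, 3.52e-05 for Fam184b, 1.55e-04 for Bc1, 6.02e-05 for C1qtnf5 and 0.00266 for Nnat.

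Matrix genes were called in both directions. Of 24 collagens, 4 were higher and 2 lower, and 4 and 0 held. Col15a1, of vessel basement membranes, stood at 107 ± 20.2 against 77.7 ± 3.57 CPM. Every one of the 4 that held lost its call without duodenal libraries 2 and 3, where 0 collagens were higher and 3 lower. Of 34 matrix glycoproteins and proteoglycans, 4 were higher and 4 lower, and 2 and 1 held, with Thbs2, thrombospondin-2, lower at 21.9, 27.7, 28.03 and 28.4 against 35.3, 40.2, 44.5 and 45.6 CPM. Without duodenal libraries 2 and 3, 0 were higher and 13 lower. Adipocyte genes gave 0 higher and 10 lower calls among 19, and 0 held. Adipoq, the adipocyte hormone adiponectin, had 3.92, 19.6, 28.2 and 11.5 against 98.9, 67.5, 54.9 and 93.7 CPM, and its call was lost in 7 of 19 alternatives, among them those without duodenal library 1, 2 or 4 or ileal library 1 or 4. Of 12 mesothelial genes, 2 were higher and 4 lower, and 0 held: the mesothelial gene Upk3b had 0.0173, 0, 0.00424 and 0.0101 against 0.986, 2.302, 1.08 and 1.098 CPM with no overlap, although the call was lost in each fit with 2 duodenal libraries. The keratin genes Krt8 and Krt18, which pancreas also makes, were not called without libraries 1 and 2, with limma-voom or in a fit of the 8 libraries alone. Among 19 tested genes of the intestinal epithelium 3 calls were higher and 0 lower, or 15.8% called against 14.6% of all genes, and 0 held. Reg3b, which acinar cells also make, had 63.3, 45.6, 0.0508 and 0.0304 against 0.0883, 0.3303, 0.206 and 0.0566 CPM and was not called without libraries 1 and 2 or with limma-voom.

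**Figure D5:**
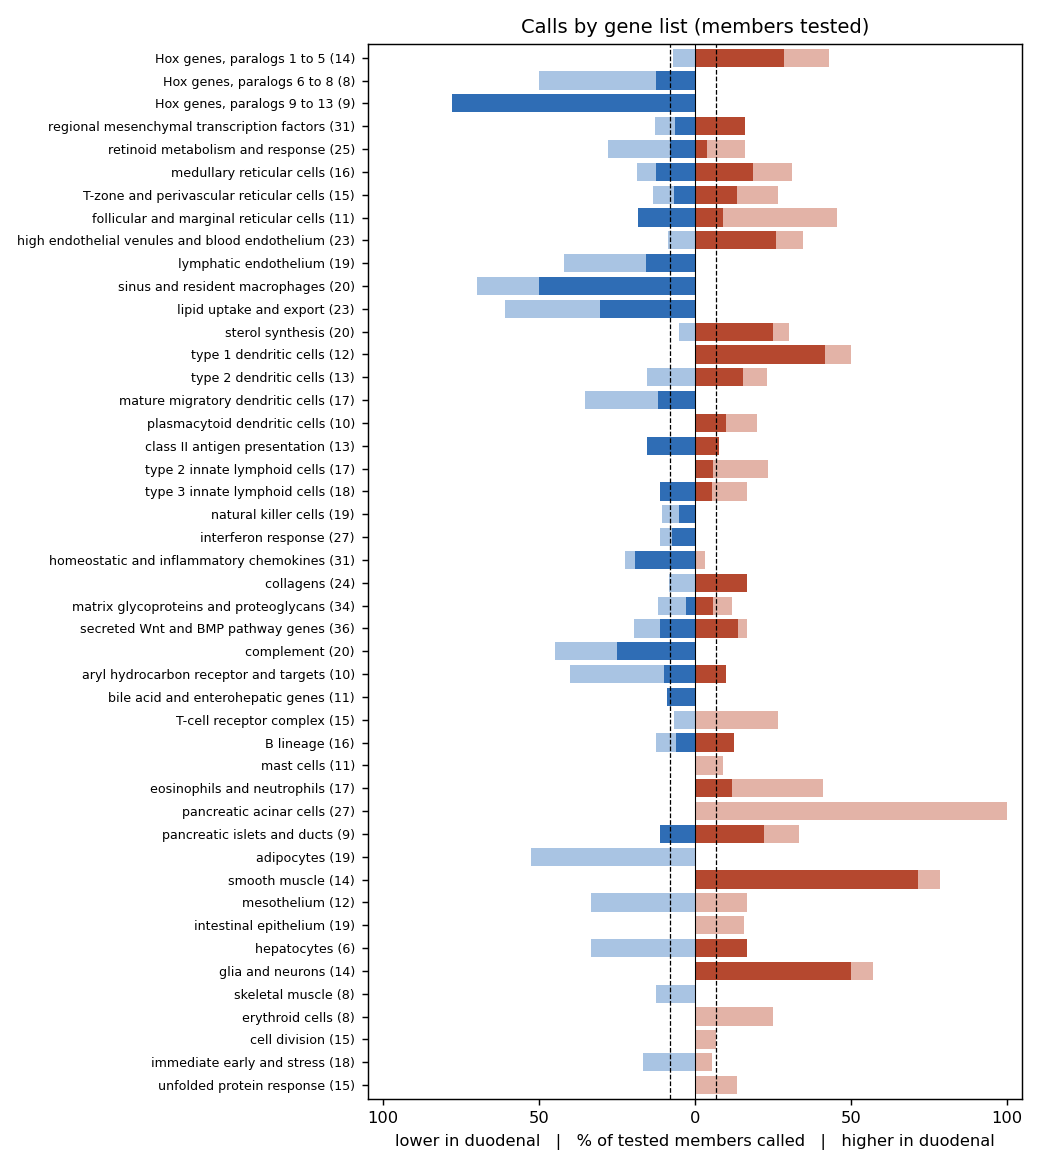
Share of the tested members of each gene list called higher (right) or lower (left) in the duodenal node; the darker part of each bar held in libraries 3 and 4. Dashed lines mark the shares of all genes tested, 6.58% higher and 8.03% lower.

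The remaining lists gave few calls that held. Of 15 T-cell receptor complex genes, 4 were higher and 1 lower. Of 11 mast cell genes 1 was higher, and of 15 genes of the unfolded protein response 2 were. Among 15 cell division genes 1 was higher. Among 18 immediate early and stress genes 1 was higher and 3 lower. Of 8 erythroid genes, 2 were higher. None of these calls held. Of 8 skeletal muscle genes 1 was lower and did not hold. Of 10 plasmacytoid dendritic cell genes 2 were higher and Klk1 held. The islet and duct list had 3 higher and 1 lower calls among 9, of which 2 and 1 held. The hepatocyte list had 1 higher and 2 lower calls among 6, of which 1 and 0 held. Among genes chosen for their role in gut nodes, Cxcl14, a stromal chemokine, stood at 17.5, 13.2, 19.2 and 18.1 against 17.6, 15.9, 17.8 and 24.4 CPM and was not called. Rag2, the partner of Rag1, was at 0.363 ± 0.0781 against 0.373 ± 0.0389 CPM and was not called.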

How the data were processed

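The deposited gene table holds estimated counts per gene and library, and the deposited transcript tables hold estimated counts and TPM per transcript with kallisto's header, per the file headers. Over 12483 genes with high counts in every library, 99.7% of the values in the gene table matched length-scaled TPM within 0.001 on the log2 scale. The counts of the gene table are therefore already adjusted for transcript length. The submitters' processing notes also name limma, edgeR and the builds GRCm39 and mm10, with no version or role. Estimated counts were rounded to whole numbers. Genes were filtered with edgeR's filterByExpr (minimum count 10, minimum total 15), scaled by TMM and fitted over all 20 libraries with edgeR 4.0.16 (R 4.3.3) using the quasi-likelihood test, and p-values were Benjamini-Hochberg adjusted over all 29411 genes, with a threshold of 0.05. A second fit left out duodenal libraries 1 and 2. The SE of a log2 fold change comes from the spread of log2 CPM (prior count 2) in the 4 and 4 libraries. TPM served only to compare levels between genes. No count column was left unmapped (0 columns). The scripts were tested on simulated data.

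Named genes were a fixed set, the 15 highest and 15 lowest fold changes under the stated rule, up to 3 members of each list, and the genes lost without duodenal libraries 1 and 2; some are not reported here, and further list members were named after their values were seen. The members and lists were chosen with earlier results of these data known. Alternatives were RLE scaling, no filter, DESeq2 1.42.0, limma-voom (limma 3.58.1), a replicate block, the 8 libraries alone, acinar genes removed, counts summed from transcripts and libraries left out. Near-identical genes (pancreatic proteases and amylases, globins, kallikreins, Ly6 and class II genes) may share reads.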

Additional observations from a re-analysis of the deposited data

Results flagged for a closer look

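In 33 of 416 groups of 4 libraries examined (the genes named above and the summed CPM of each list), 1 library stood far from the other 3 by Dixon's rule, which sets the gap to the nearest neighbour against the range of the group. Chance flags about 1 in 20 groups. Duodenal library 1 stood apart for Barx1 (0.0173 CPM, the others at 0), C1qtnf5 (11.4 CPM, the others 13.1 to 13.2), Ccl5 (579.8 CPM, the others 416 to 442), Cd8a (51.6 CPM, the others 35.6 to 38.1), Il22ra2 (3.301 CPM, the others 1.48 to 1.78), Il6 (2.605 CPM, the others 1.39 to 1.54) and Thbs2 (21.9 CPM, the others 27.7 to 28.4). Duodenal library 2 stood apart for Apoc2 (6.15 CPM, the others 6.61 to 6.69). Duodenal library 3 stood apart for Adra1b (6.04 CPM, the others 3.52 to 3.92), Gata6 (29.6 CPM, the others 20.5 to 20.6), Hoxb8 (4.77 CPM, the others 3.61 to 3.74) and Hoxd10 (2.596 CPM, the others 1.504 to 1.66). Duodenal library 4 stood apart for Bc1 (48.95 CPM, the others 82.3 to 87.7), Cyp51 (57.1 CPM, the others 48.8 to 49.2) and Fscn1 (2101 CPM, the others 1583 to 1659). Ileal library 1 stood apart for Ctrl (1.46 CPM, the others 2.17 to 2.26) and Ins1 (0.00465 CPM, the others at 0). Ileal library 2 stood apart for Csf1r (843 CPM, the others 1069 to 1099), Flt4 (149 CPM, the others 182 to 187), Nkx2-3 (20.1 CPM, the others 22.6 to 22.8) and Upk3b (2.302 CPM, the others 0.986 to 1.098). Ileal library 3 stood apart for Bmp3 (1.58 CPM, the others 0.953 to 0.9702). Ileal library 4 stood apart for Ccl19 (208 CPM, the others 277 to 290.3), Glycam1 (68.1 CPM, the others 136 to 141) and Vdr (7.08 CPM, the others 8.74 to 8.98). For the list "Hox genes, paralogs 6 to 8" the sum was 62.6 CPM in duodenal library 3 and 48.9 to 50.4 CPM in the others of its group. For the list "high endothelial venules and blood endothelium" the sum was 2707 CPM in duodenal library 3 and 2375 to 2409 CPM in the others of its group. For the list "class II antigen presentation" the sum was 14830.0 CPM in ileal library 2 and 16370.0 to 16510.0 CPM in the others of its group. For the list "T-cell receptor complex" the sum was 309.7 CPM in duodenal library 1 and 234 to 241 CPM in the others of its group. For the list "pancreatic islets and ducts" the sum was 7.71 CPM in duodenal library 1 and 5.98 to 6.26 CPM in the others of its group. For the list "skeletal muscle" the sum was 17.9 CPM in duodenal library 1 and 12.3 to 12.9 CPM in the others of its group. For the list "unfolded protein response" the sum was 2557 CPM in duodenal library 1 and 2199 to 2247 CPM in the others of its group. For the list "unfolded protein response" the sum was 2049 CPM in ileal library 1 and 2127 to 2143 CPM in the others of its group.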

How the results depend on the processing

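Of 137 named genes that were called, 88 kept the call in all 19 alternatives, 24 lost it without duodenal libraries 1 and 2, 26 without 2 and 3, 12 in a fit of the 8 libraries alone and 7 with limma-voom. No named gene lost it with RLE size factors, DESeq2, the replicate block or without the acinar genes. Of the named genes that were not called, 6 were called in some alternative. Krt8 and Reg3b changed sign without duodenal libraries 1 and 2 (log2 fold changes -0.12 and -2.04, neither called). Against 4297 called genes, 2571 were called in a fit of the 8 libraries alone, 1267 without duodenal libraries 1 and 2, and 2312 without 2 and 3, an alternative chosen after seeing the data. Leaving out 1 library gave 2306 (duodenal 2) to 4307 calls (duodenal 3), with 2553 without ileal library 3 and 2427 without ileal library 4. Calls that held in libraries 3 and 4 numbered 1143, against 1942 with DESeq2 and 606 with the 8 libraries alone. The causes were not tested. Counts summed from transcripts moved no count by over 1.5 times, while 52% of those calls were higher, against 45%. The acinar share of ileal library 4 was 0.00251% of the unscaled total count in place of 0.00262% of CPM.

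With the replicate number as a replicate block, 5668 genes were called and 1648 held. Same-numbered duodenal and ileal libraries deviated together with correlations of 0.0321 to 0.0853, and pairs of unlike numbers ranged from -0.116 to 0.0863. Values this small cannot settle whether a number marks a mouse. The numbers were not taken as pairs in the main comparison. Duodenal libraries 1, 2 and 3 correlated best with the ileal library of their own number, and duodenal library 4 with ileal library 3 (0.0863).

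In simulated counts, 2-fold changes at 1 CPM or more were recovered for 96% of genes with 4 against 4 libraries and for 88% with 2 against 4, but 1.5-fold changes for 50% and 34%, and 2-fold changes under 1 CPM for 12% and 4%. A missing call at low level or with fewer libraries is therefore weak evidence of equal levels. The simulation was 1 draw that changed 50 genes for each level and fold among 29411, against 4297 genes called in the data. It held no acinar or muscle excess tied to certain libraries, so its rates need not carry over to the data.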
